A study of Homo sapiens with 3 samples.

Results

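The nuclear genes of oxidative phosphorylation were examined in DU145, an androgen-independent line derived from human prostate cancer. The set was chosen by name: every gene annotated as protein_coding whose symbol begins with NDUFA, NDUFB, NDUFC, NDUFS or NDUFV and a digit, with UQCR, with COX and a digit from 4 to 8, or with ATP5, together with SDHA, SDHB, SDHC and SDHD. This gave 90 genes of the 58735 listed, of which 19951 are protein_coding. By complex they are 39 genes of complex I, 4 of complex II, 9 of complex III, 17 of complex IV and 21 of complex V.

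The mitochondrial inner membrane holds 5 large enzymes that turn the energy of food into ATP. Complexes I and II take electrons from NADH and succinate, complex III passes them to cytochrome c, complex IV gives them to oxygen, and the proton gradient that builds up drives complex V, the ATP synthase. Most subunits are encoded in the nucleus and imported, while a small set is encoded by mitochondrial DNA, so each of complexes I, III, IV and V is assembled from the products of both genomes. Tumour cells, including those of the prostate, differ widely in how far they rely on this pathway.

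The data were RNA-seq read counts of 3 libraries, each of poly(A) RNA from DU145 cells. The control had 1 library and, by the study's methods, such cells carried the empty pLKO.1 lentiviral vector. PD-L1, the immune checkpoint ligand encoded by CD274, was the target in the other libraries, which are labelled PD-L1 knockdown 1 and PD-L1 knockdown 2 and were made with shRNA 1 and shRNA 2 in stably infected, puromycin-selected cells. The question put by the design is whether transcripts differ when PD-L1 is lowered, and here it is asked of the respiratory genes.

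Several points limit the comparison. CD274 had 204 counts in the control and 213 and 224 in those labelled PD-L1 knockdown 1 and 2 (log2 fold change 0.05, SE 0.20, adjusted p = 0.947 by edgeR's quasi-likelihood test). Its RNA was thus not lower, and libraries keep the names their labels give. The study checked its stable lines, DU145 among them, for PD-L1 protein by Western blotting, which these RNA counts do not measure. The column heading of the control names RBM45, the series text names the thyroid line BCPAP, and the medium differs between the labels and the methods. The epithelial markers KRT8, KRT18, KRT19, EPCAM and CDH1 were present in every library, whereas KLK3 and TMPRSS2 of the prostate luminal list and the leukocyte marker CD3E were at 0 in all 3, and among thyroid markers only FOXE1 exceeded 2 CPM, counts scaled to library size (50.04, 43.9 and 45.6). The count totals were 14733088, 14738298 and 15786457. The control has no replicate, so the tests rest on 1 residual degree of freedom from libraries made with different shRNAs. They cover no spread between control cultures. In the main edgeR fit this spread was pooled fully over genes (infinite prior degrees of freedom). A gene's own spread therefore carried no weight in its SE or p-value. An exact permutation test was not run, since 2 libraries against 1 allow 3 arrangements only.

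The coding sequences of the c subunit genes are shown because their mature proteins are the same while their transcripts are not. ATP5MC1, ATP5MC2 and ATP5MC3 encode the c subunit of the rotating ring of ATP synthase, each with a different leader that is removed after import. The last 75 codons before the stop are shown 5′ to 3′ from the GENCODE transcripts, with bases that differ from ATP5MC1 in capitals. The intervals of GRCh38 that hold them, introns included, are chr17:48895222-48895766 on the plus strand for ATP5MC1, chr12:53665317-53669260 on the minus strand for ATP5MC2 and chr2:175178291-175179169 on the minus strand for ATP5MC3.
ATP5MC1: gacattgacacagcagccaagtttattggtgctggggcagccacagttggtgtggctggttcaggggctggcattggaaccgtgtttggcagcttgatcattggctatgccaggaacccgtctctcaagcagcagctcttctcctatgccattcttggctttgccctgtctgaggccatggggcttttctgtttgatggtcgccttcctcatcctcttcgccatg
ATP5MC2: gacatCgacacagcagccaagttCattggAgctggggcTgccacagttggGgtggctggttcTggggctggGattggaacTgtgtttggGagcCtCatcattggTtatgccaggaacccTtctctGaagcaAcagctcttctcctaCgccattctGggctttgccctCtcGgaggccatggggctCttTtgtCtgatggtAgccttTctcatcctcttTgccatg
ATP5MC3: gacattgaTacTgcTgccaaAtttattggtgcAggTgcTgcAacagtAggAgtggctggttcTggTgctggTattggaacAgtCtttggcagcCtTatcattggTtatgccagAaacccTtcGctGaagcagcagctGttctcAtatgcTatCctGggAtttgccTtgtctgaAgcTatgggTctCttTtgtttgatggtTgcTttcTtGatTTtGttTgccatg

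ATP5MC2 differs from ATP5MC1 at 25 of these 225 bases (88.9% identity) and ATP5MC3 at 42 (81.3% identity). The differences fall in 24 and 39 codons, and 0 codons code for another amino acid. The longest identical run was 17 bases between ATP5MC1 and ATP5MC2, 11 between ATP5MC1 and ATP5MC3 and 17 between ATP5MC2 and ATP5MC3, so no word of 31 bases is shared in this stretch. The same mature protein is thus encoded by 3 transcripts that differ in these bases.

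Per length, all 3 c subunit genes were expressed. FPKM, the reads scaled by gene length and library size, was 29.2 for ATP5MC1, 24.99 for ATP5MC2 and 9.38 for ATP5MC3 in the control. ATP5MC1 gave 46.0% of the summed FPKM of the 3 genes in the control, and 46.1% and 48.8% in the libraries labelled PD-L1 knockdown 1 and 2. ATP5MC2 gave 39.3%, 40.0% and 35.9%, and ATP5MC3 gave 14.7%, 13.9% and 15.3%. The order of the 3 genes was the same in each library. The counts of all 3 were above the control in both other libraries: 1135, 1282 and 1460 for ATP5MC1, 1481, 1696 and 1640 for ATP5MC2, and 944, 998 and 1186 for ATP5MC3. None passed the test, with log2 fold changes of 0.22, 0.13 and 0.16. Without PD-L1 knockdown 1 the value of ATP5MC2 was 0.05, and without PD-L1 knockdown 2 it was 0.20 and that of ATP5MC3 was 0.09.

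Promoters of these genes are known for sites of the factors NRF1, ETS (the family of GABPA) and YY1. The RefSeq promoter table (GRCh38.p14, 250 bases before to 50 after the start) held 70 of the 90 genes. The letters GCGCATGC, the core of the NRF1 site, were found on either strand in 13 of the 70 (18.6%), against 3.27% of all 27305 promoters and 5.05% of 11287 promoters of other tested protein_coding genes. The ETS core CCGGAAG was in 28.6% of the set, 10.7% of all promoters and 18.1% of those of other tested genes, and the YY1 core AAGATGGC in 15.7%, 3.03% and 4.93%. The GC box GGGCGG was in 61.4% of the set, 44.6% of all promoters and 69.2% of those of other tested genes. At least 1 of the NRF1, ETS and YY1 cores lay in 34 of the 70 promoters (48.6%), against 15.6% and 25.4%. The ETS core ends and the YY1 core begins with AAG, so that the same letters can serve both, and a match is a run of letters, not a bound site.

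Windows of 60 bases before the start are shown for 3 genes that recur below, with the core in capitals. They were picked from the 10 genes named below for the size of their change. Of these, ATP5IF1, NDUFA9, UQCR10 and UQCRC1 had no NRF1, ETS or YY1 core before the start, and COX6B1, NDUFS3 and UQCRQ had an ETS core. NDUFA9 and UQCRC1 each had a YY1 core that reached past the start, which the counts above include. COX6A1 also had, on the opposite strand, an NRF1 core 218 bases and an ETS core 16 bases before the start, not shown. In NDUFS6 (chr5:1801335-1801394, plus strand) the NRF1 core starts 46 bases before the start, in COX6A1 (chr12:120437913-120437972, plus strand) it starts 174 bases before it, and in COX8A (chr11:63974560-63974619, plus strand) the ETS core lies on the opposite strand 18 bases before it.
NDUFS6: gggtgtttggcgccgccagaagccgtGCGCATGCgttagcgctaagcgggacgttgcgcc
COX6A1: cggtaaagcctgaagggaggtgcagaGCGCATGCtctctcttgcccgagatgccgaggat
COX8A: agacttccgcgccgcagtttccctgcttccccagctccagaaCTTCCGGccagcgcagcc

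Fold changes were set beside the motifs. The tested genes with at least 1 of the NRF1, ETS and YY1 cores had a median log2 fold change of 0.18 (34 genes), and those without had 0.16 (32 genes). For the NRF1 core alone the medians were 0.13 (13 genes) and 0.17 (53 genes), for the ETS core 0.12 (20 genes) and 0.16 (46 genes), and for the YY1 core 0.23 (11 genes) and 0.16 (55 genes). These medians are descriptions with no test.

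Most of the respiratory genes were expressed in these libraries. Of the 90 genes, 83 had at least 10 counts summed over the libraries and were tested, and 76 had a mean of at least 100 counts. Of the 19951 protein_coding genes listed, 14169 were tested and 10343 had such a mean. Levels were not ranked against those of other genes. ATP5F1B, the catalytic beta subunit of ATP synthase, had the highest FPKM of the set with 405 in the control, then 423 and 409 in libraries labelled PD-L1 knockdown 1 and 2, and gave 17.1%, 16.4% and 15.9% of all counts of the set. COX8A, a small subunit of complex IV, came next with 112, 149 and 148. The median FPKM over the 90 genes was 15.8, 16.6 and 15.4. FPKM of genes with long alternative transcripts is understated, since the listed length is the union of all annotated exons of a gene.

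**Figure D1:**
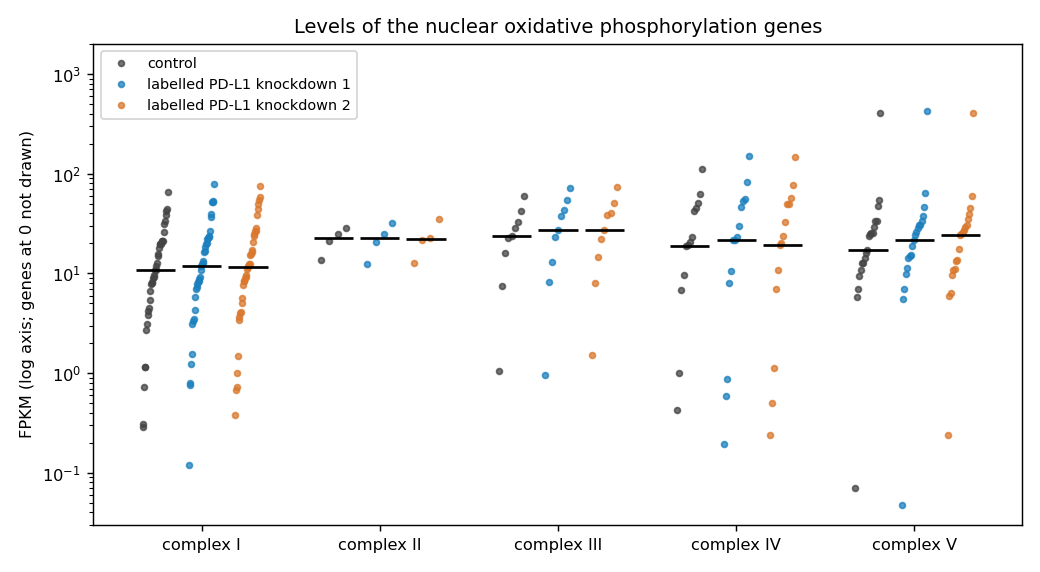
FPKM on a log axis of the 90 genes, by complex (x axis), for the control and for both libraries labelled PD-L1 knockdown. Each point is 1 gene in 1 library, black lines are medians over all genes of the complex including those at 0, and genes at 0 are not drawn. ATP5F1B stands highest at 405 to 423 FPKM, and complex II spans the narrowest range, from 12.5 to 35.2 FPKM.

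Within each complex the genes with the highest FPKM in the control are given. In complex I these were NDUFS5 (65.0, 79.5 and 74.8 FPKM), an intermembrane-space subunit, NDUFA8 (44.6, 51.5 and 57.8) and NDUFB10 (42.7, 52.8 and 49.6), with NDUFS6 (38.1, 51.6 and 54.5) above NDUFA8 in library 1 and above NDUFB10 in library 2 of those labelled PD-L1 knockdown. In complex III they were UQCRH (59.98, 72.5 and 73.0), the hinge protein, UQCRC1 (42.1, 54.4 and 51.4), a core protein, and UQCRQ (32.7, 43.2 and 40.5). After COX8A, complex IV was led by COX6B1 (62.9, 82.2 and 77.8) and COX5A (50.7, 55.7 and 57.3). After ATP5F1B, complex V was led by ATP5MD (54.5, 64.6 and 59.4) and ATP5F1C (47.5, 46.7 and 45.7), the gamma subunit of the rotor. The 4 complex II genes lay close together, from SDHC (13.5, 12.5 and 12.6), a membrane anchor, to SDHA (28.2, 31.8 and 35.2), the flavoprotein.

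The 7 genes below the filter were tissue isoforms, copies and read-through genes. COX6A2, COX7B2 and NDUFC2-KCTD14 were at 0 in every library. COX4I2 had 0, 2 and 0 counts, COX8C 0, 0 and 2, ATP5MGL 0, 0 and 3, and the read-through gene ATP5MF-PTCD1 3, 2 and 0.

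The isoform pairs therefore leaned to the widely expressed form in all 3 libraries. COX6A1 had 465, 599 and 693 counts where COX6A2, the heart and muscle form, had 0, which allows a share of up to 0.645%, 0.501% and 0.433% of the pair (3 counts, counting error only). COX4I2, the form known from lung and low oxygen, made up 0%, 0.061% and 0% of the counts of its pair with COX4I1 (3008, 3293 and 3727 counts). COX7A1, another heart and muscle form, made up 2.74% (exact 95% interval 1.54 to 4.47), 2.06% (1.10 to 3.50) and 2.85% (1.70 to 4.47) of its pair with COX7A2. COX6B2, a testis form, made up 2.67%, 2.82% and 2.54% of its pair with COX6B1, and these intervals overlap. NDUFA4L2, a hypoxia-responsive relative of NDUFA4, had 13, 5 and 17 counts and made up 1.22% (0.652 to 2.08), 0.479% (0.156 to 1.11) and 1.74% (1.02 to 2.77), so the control lies between the other libraries. UQCRHL, a copy of UQCRH with 20.7% of its 31-base words shared with other genes, had 34, 31 and 52 counts beside 1254, 1510 and 1625 for UQCRH.

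In the comparison of the libraries labelled PD-L1 knockdown with the control, most of the respiratory genes had slightly higher values and none passed the adjusted threshold. The CPM summed over the 90 genes, scaled by TMM, was 5536 for the control, then 6024 and 5995 for those labelled PD-L1 knockdown 1 and 2. The ratios to the control were 1.09 (exact 95% counting interval 1.08 to 1.10) and 1.08 (1.07 to 1.09). The median log2 fold change of the 83 tested genes was 0.15 (quartiles 0.01 and 0.24), against 0.00 for all 19849 tested genes and 0.01 for the 14169 tested protein_coding genes. The fold change was above 0 for 62 genes and below 0 for 21. In bulk RNA a change in the number of cells of a kind and a change in RNA per cell cannot be told apart.

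By count of genes, the set leaned one way. Both libraries labelled PD-L1 knockdown were above the control for 55 of the 83 genes (66.3%), where 37.7% of all tested genes were, and both were below it for 10 (12.0%), where 36.8% of all tested genes were. The other 18 genes had the control between the libraries. Among the 5155 tested protein_coding genes outside the set but within its middle range of length, both were above for 2495 and both below for 1408. Of the 76 genes averaging at least 100 counts, 27 (35.5%) had a counting interval of the ratio above 1 in both libraries, against 16.8% of all genes of that depth, and 2 (2.63%) below 1 in both, against 13.7%. Those 2 were SDHC and ATP5PB. Of the 3276 genes of that depth outside the set but of like length, 808 had intervals above 1 in both libraries and 189 below. Both libraries share the control, so these counts are not repeats of each other, and the intervals compare libraries and cover counting error only.

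**Figure D2:**
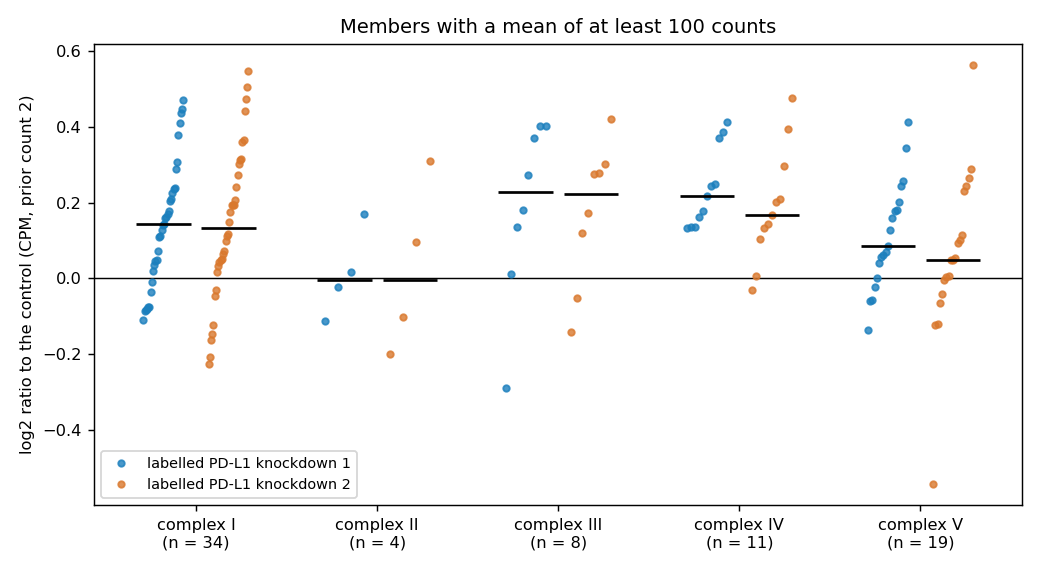
Log2 ratio to the control (y axis, CPM with a prior count of 2) of the 76 genes whose mean was at least 100 counts, by complex (x axis). Each point is 1 gene in the library labelled PD-L1 knockdown 1 or 2, and black lines are medians. Both medians lie above 0 in complexes I, III, IV and V and near 0 in complex II.

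By the test, 0 of the 83 genes had an adjusted p under 0.05, as did 70 of all tested genes (0.353%), with edgeR's quasi-likelihood test. DESeq2's Wald test also gave 0 of the set, and 6 of all genes. At an unadjusted p under 0.05, 13 genes of the set (15.7%) were higher, against 6.82% of all tested genes, and 0 were lower, against 4.92%. Of the 5155 protein_coding genes of like length outside the set, edgeR gave 537 higher and 150 lower at that level. No gene of the set combined an unadjusted p under 0.05 with an absolute log2 fold change above 1, which 2.48% of all tested genes did. Of the 10267 protein_coding genes outside the set with a mean of at least 100 counts, only 5 did. The SE of a log2 fold change had a median of 0.14 over the 76 genes of at least 100 mean counts, and none of these genes had an absolute log2 fold change over 0.5.

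The genes with the smallest adjusted p-values belonged to different complexes. NDUFS6 (ENSG00000145494, chr5:1801400-1816605, plus strand), a zinc-binding subunit of the complex I matrix arm, had 821 counts in the control, against 1107 and 1249 in those labelled PD-L1 knockdown 1 and 2. Both lay above the single control in CPM, as 37.7% of all tested genes did, and the log2 fold change was 0.47 (SE 0.14, adjusted p = 0.0939, edgeR). ATP5IF1 (chr1:28236109-28246906, plus strand), the inhibitor that stops the ATP synthase from running backwards, had 534, 709 and 846 counts, with a fold change of 0.49 on the log2 scale (SE 0.15, adjusted p = 0.123, edgeR). COX8A (chr11:63974607-63976543, plus strand) had 840, 1115 and 1183 counts, with a fold change of 0.41 on the log2 scale (SE 0.14, adjusted p = 0.185, edgeR), although 30.6% of its 31-base words also belong to AP000721.1, an overlapping gene at 0 counts in all libraries. For each of the 3 genes both libraries lay above the control, by ratios of 1.35 and 1.42 for NDUFS6, 1.33 and 1.48 for ATP5IF1 and 1.33 and 1.32 for COX8A.

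**Figure D3:**
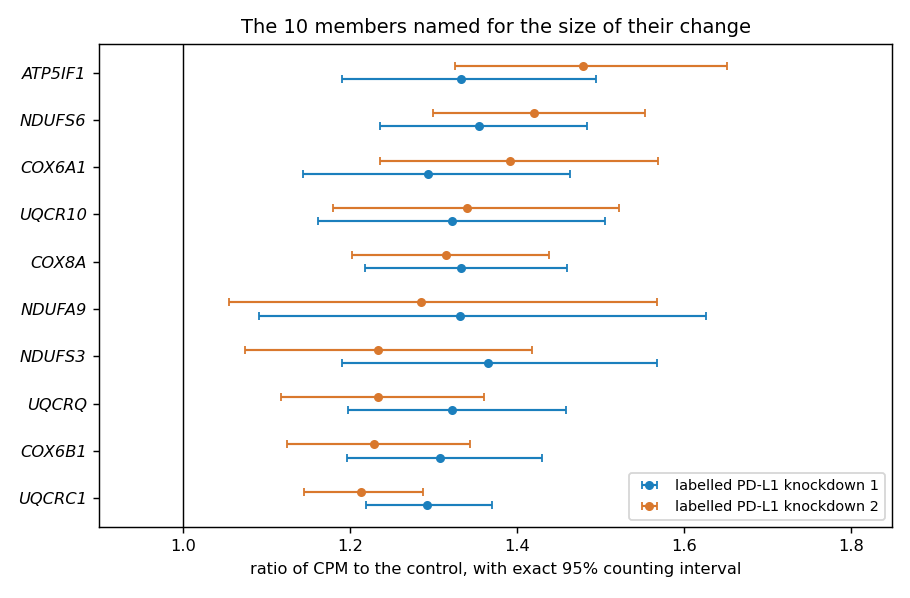
Ratio of CPM to the control (x axis) for the 10 genes with the largest fold change among those whose counting intervals lie on 1 side of 1 in both libraries. Points stand for each library labelled PD-L1 knockdown, with exact 95% counting intervals as bars, which cover counting error only. All 10 genes lie above 1, and the rule that named them required the intervals to exclude 1.

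The 38 tested genes of complex I had a median log2 fold change of 0.16, with 28 above 0 and 10 below. The 7 nuclear core subunits carry the flavin and iron-sulfur centres and the quinone site. Of these, NDUFS3 had 364, 495 and 481 counts (log2 fold change 0.38, SE 0.17) and NDUFS7 302, 348 and 474 (0.39, SE 0.18), both with an unadjusted p under 0.05 and adjusted p of 0.353 and 0.356 by edgeR; 50.6% of the words of NDUFS7 are shared with other genes. In the other core genes NDUFV1 had 1599, 1759 and 2132 counts (0.23) and NDUFS8 1435, 1561 and 1703 (0.14), with the control lowest in both. NDUFS1, the largest subunit, had 1620, 1519 and 1774 (-0.03) and NDUFV2 46, 50 and 43 (-0.03), so that the control lay between the other libraries. The median of the 7 core genes was 0.21 and that of the 31 tested accessory genes 0.14.

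Accessory subunits of complex I surround this core and are needed for its assembly and stability. NDUFA9, near the quinone site, had 178, 236 and 245 counts (log2 fold change 0.39, SE 0.20, adjusted p = 0.447 by edgeR). NDUFA7 had the highest fitted fold change of the set, 1.31, on 6, 16 and 15 counts (SE 0.85), and 45.8% of its words are shared with other genes. NDUFB11, with 442, 475 and 644 counts, overlaps RBM10 on the opposite strand (43.2% of its words are shared), and NDUFB4 had 500, 514 and 463 and NDUFA3 199, 258 and 224 counts. These 3 genes and NDUFS7 were named for the size of their gap between the libraries labelled PD-L1 knockdown. Ratios of library 2 to library 1 were 1.26 (1.12 to 1.42) for NDUFB11 and 0.838 (0.737 to 0.952) for NDUFB4. They were 0.807 (0.672 to 0.969) for NDUFA3 and 1.27 (1.10 to 1.46) for NDUFS7. Of the 83 tested genes of the set, 12 had such an interval above 1 and 12 below. Of all 19849 tested genes, 2554 had it above 1 and 2647 below. NDUFA4, named for complex I and now also placed with complex IV, had 1051, 1039 and 962 counts (-0.11).

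Complex II, the one complex with no subunit from mitochondrial DNA and also an enzyme of the TCA cycle, had no common direction. SDHA had 3513, 3937 and 4664 counts, with a fold change of 0.24 on the log2 scale (SE 0.12, adjusted p = 0.382, edgeR). SDHB, the iron-sulfur subunit, had 764, 749 and 874 (0.04). The membrane anchors were SDHC, with 2836, 2613 and 2830 counts (-0.11), and SDHD, with 1038, 1045 and 967 (-0.09). SDHC was below the control in CPM in both libraries (ratios 0.925 and 0.932, intervals below 1), and SDHD had log2 ratios of 0.02 and -0.20. The median of the 4 was -0.03.

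Complex III had a median of 0.23, with 7 of 9 genes above 0. UQCR10 had 414, 545 and 594 counts (log2 fold change 0.41, SE 0.16, adjusted p = 0.274 by edgeR), UQCRQ 714, 940 and 943 (0.35, SE 0.14, adjusted p = 0.288 by edgeR), UQCRC1 2021, 2601 and 2627 (0.33, SE 0.12, adjusted p = 0.235 by edgeR) and UQCRH 1254, 1510 and 1625 (0.27, SE 0.13). In these 4 genes the control was lowest. UQCRFS1, the Rieske iron-sulfur protein that passes electrons to cytochrome c1, had 1232, 1391 and 1487 counts (0.18). UQCRC2, the other core protein, had 1772, 1778 and 1830 (-0.02). UQCR11, a small membrane subunit, was the exception with 512, 417 and 497 counts (-0.21), both others below the control in CPM. The summed CPM of complex III was 612, 707 and 690.

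Complex IV had a median of 0.17 over 13 tested genes, 12 of them above 0. COX6A1 had 465, 599 and 693 counts (log2 fold change 0.43, SE 0.16, adjusted p = 0.235 by edgeR), and its processed pseudogene COX6A1P2, which holds 16.7% of its words, had 19, 37 and 40. COX6B1, which links the monomers of the dimer on the intermembrane-space side, had 874, 1138 and 1150 (0.34, SE 0.14, adjusted p = 0.281 by edgeR). COX4I1, the largest nuclear subunit, had 3008, 3293 and 3727 (0.17), COX5A 1063, 1162 and 1278 (0.15) and COX7A2 533, 617 and 613 (0.16). In each of these genes the control had the lowest count and CPM. The summed CPM of complex IV was 718, 836 and 824, ratios of 1.16 and 1.15 to the control.

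Complex V had a median of 0.07 over 19 tested genes. In the F1 head, where ATP is made, ATP5F1B had 13973, 14523 and 15005 counts (log2 fold change 0.03, SE 0.11) and ATP5F1A, the alpha subunit, 4080, 4182 and 4663 (0.07), while ATP5F1C had 1639, 1605 and 1679 (-0.04). The 4 genes of the peripheral stalk, which holds the head still, had a median of -0.01, and ATP5PB, with 1676, 1517 and 1650 counts (-0.13), was below the control in both libraries. Among the small membrane subunits ATP5MF had 807, 1020 and 1057 counts (0.32, SE 0.14, adjusted p = 0.342 by edgeR) and ATP5MD 748, 883 and 867 (0.18), while ATP5MG had 347, 346 and 341 (-0.06). ATP5ME had 197, 206 and 144 counts (-0.21), the widest gap between the labelled libraries among genes averaging at least 100 counts (ratio of library 2 to library 1 0.650, 0.522 to 0.808), and 51.5% of its words are shared with MYL5 on the opposite strand. ATP5S, named for the synthase but not a subunit of it, had 963, 920 and 1070 (-0.00162). No test of the difference between complexes, or between the parts of complex V, was run.

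Fold changes of all genes moved with transcript GC content and gene length, and the set is short. The listed length had a median of 2394 bases over the 90 genes and 5009 over tested protein_coding genes. Across all tested protein_coding genes the median log2 fold change was 0.13 in the shortest of 5 equal classes and -0.07 in the longest, and -0.17 in the class of lowest GC and 0.23 in that of highest. The 47 tested respiratory genes in the shortest class had a median of 0.18. By GC, the 22 genes in the middle class had a median of 0.23 where all protein_coding genes had 0.00, while the 12 in the highest class had 0.22 where all had 0.23. Within the set the genes of higher GC had higher fold changes (Spearman 0.467 over 76 genes of at least 100 mean counts, 0.695 over 10341 protein_coding genes of that depth; genes share their libraries and are not replicates).

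**Figure D4:**
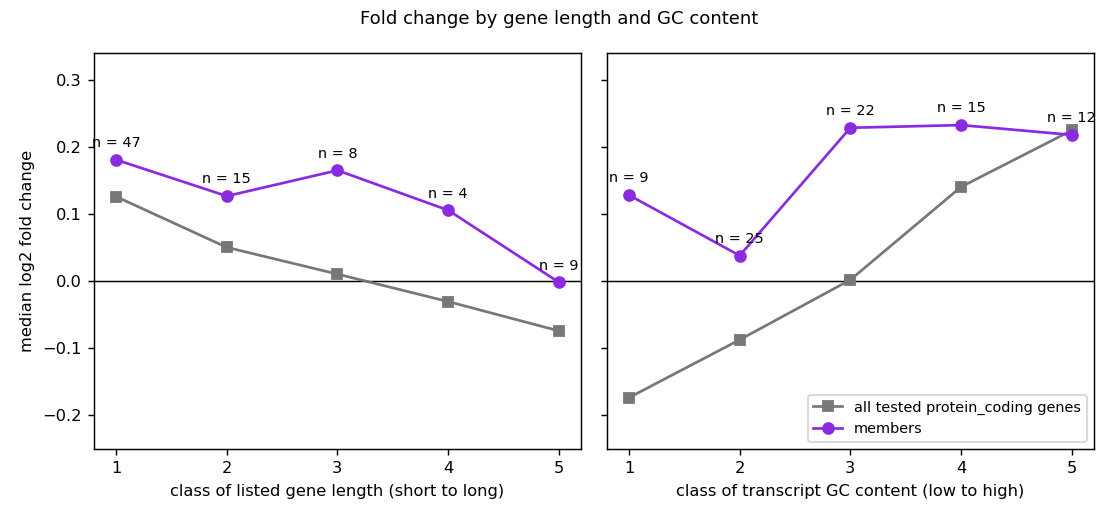
Median log2 fold change (y axis) by class (5 equal classes) of listed gene length (left) and of transcript GC content (right), for all tested protein_coding genes and for the respiratory genes, with the number of respiratory genes in each class. The respiratory genes lie above all genes in each class except that of highest GC, where the medians are 0.22 and 0.23.

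With these trends removed the median of the set stayed above 0, and its excess over the median of all genes was smaller. This excess was 0.1496 in the main fit, 0.1158 with the length trend removed and 0.1193 with both trends removed. Whether length and GC account for the lean was not tested. Protein_coding genes outside the set had a median of 0.08 within the set's middle range of length (1446 to 4276 bases) and 0.04 within its middle range of length and GC (44.2% to 54.4%). When the trends with length and GC were removed by an offset in each library, the median of the set was 0.14, with 67 genes above 0 and 16 below, and the median of all genes was 0.02. In that fit 0 genes of the set passed the adjusted threshold (smallest adjusted p = 0.26, UQCRB, by edgeR), and NDUFS8, NDUFS1 and SDHC were among the genes whose fold change changed sign.

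Other genes of the pathway are set beside these. The lists hold assembly factors, which build the complexes and are not in them, the 13 subunits encoded by mitochondrial DNA, transcriptional regulators, mitochondrial ribosomal proteins and TCA cycle enzymes. The 54 tested assembly factors had a median of 0.05, and at an adjusted p under 0.05 only 1 was called, which was higher, where 0.353% of all tested genes were called. This was NDUFAF8, a complex I assembly factor, with 399, 641 and 667 counts (log2 fold change 0.67, SE 0.16, adjusted p = 0.0207, edgeR), which was not past the threshold with the trends of length and GC removed (adjusted p = 0.42, edgeR), among protein_coding genes alone (adjusted p = 0.053, edgeR) or by DESeq2. SDHAF1, which inserts the iron-sulfur clusters of SDHB, had 126, 226 and 231 counts (0.81, SE 0.22, adjusted p = 0.0544, edgeR). CYC1, cytochrome c1 of complex III, which the name rule leaves out, had 2075, 2423 and 3094 counts (0.36, adjusted p = 0.18, edgeR), and CYCS, cytochrome c itself, 2650, 2517 and 2621 (-0.09).

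The subunits encoded by mitochondrial DNA lay the other way. Of the 13, 12 were below the control in both libraries, where 36.8% of all tested genes were. None of the 13 passed the adjusted threshold (edgeR), and their median was -0.25. At an unadjusted p under 0.05, 9 were lower and 0 higher, against 4.92% and 6.82% of all tested genes. In complex IV the summed CPM of the 3 mitochondrial genes had ratios to the control of 0.910 and 0.815 where that of the nuclear genes had 1.16 and 1.15, and the reads from mitochondrial genes per read from nuclear genes went from 30.1 to 23.5 and 21.4. In complex I that quotient was 17.0, 13.9 and 12.2, in complex III 6.91, 5.54 and 5.03, and in complex V 2.04, 1.72 and 1.59. It was lower than the control in both libraries for all 4 complexes. The difference between the 2 genomes was not tested.

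**Figure D5:**
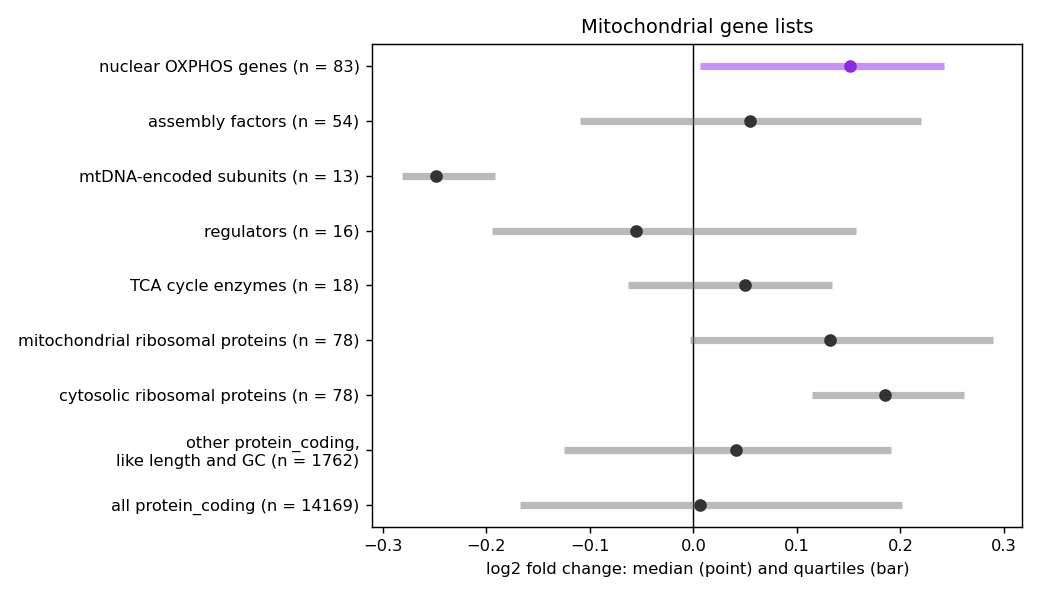
Median (points) and quartiles (bars) of the log2 fold change (x axis) of the nuclear respiratory genes and of other lists, with the number of tested genes. The nuclear respiratory genes have a median of 0.15, the mitochondrially encoded subunits -0.25 and all protein_coding genes 0.01.

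The regulators had no common direction, with 7 of 16 tested genes above 0 and a median of -0.06. ESRRA, a nuclear receptor of mitochondrial genes, had 697, 828 and 1156 counts (log2 fold change 0.46, SE 0.14) and POLRMT, the mitochondrial RNA polymerase, 1561, 1817 and 2060 (0.26). GABPA, which binds the ETS core, had 1063, 886 and 864 (-0.33, SE 0.14) and TFAM, which packages mitochondrial DNA, 1118, 1045 and 944 (-0.21). NRF1 had 314, 357 and 342 (0.11), and PPARGC1A, a coactivator of the pathway, was at 0 in all 3 libraries. None passed the adjusted threshold, and of the 16, 2 were higher and 2 lower at an unadjusted p under 0.05 (edgeR), where 6.82% and 4.92% of all tested genes were. GABPA overlaps ATP5PF on the opposite strand, which shares 21.2% of its words with other genes and had 773, 740 and 804 counts.

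Reads assigned to processed pseudogenes of the set were few: 41 of 155 had a count, summing to 193, 233 and 250, which equals 0.236%, 0.263% and 0.264% of the counts of the set.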

How the data were processed

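Poly(A) RNA-seq of 3 DU145 libraries was used. The authors deposited raw read counts per gene and FPKM, and each FPKM was checked to be the count over listed length times 1 factor for each library. The submitters' processing notes name Bowtie2 2.0.6, TopHat2 2.0.9, Cufflinks 2.1.1 and Cuffdiff 2.1.1. The counting tool, its use of strand and its handling of overlapping genes are not given in the sources used here. Gene positions and lengths (the union of exons) match GENCODE release 29 for all 58735 genes.

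A filter of 10 counts over all libraries together left 19849 genes, tested by edgeR 4.0.16 (R 4.3.3; TMM, glmQLFit, glmQLFTest, Benjamini-Hochberg adjustment over all tested genes), 2 libraries against 1, with DESeq2 1.42.0 as an alternative. SE is the fold change divided by the square root of F. Intervals of ratios are exact binomial intervals at 95%; they cover counting error only, since without molecular identifiers PCR copies are not told apart. Whether the libraries came from separate cultures is not given. The p-values rest on the spread between these samples, pooled over genes in the main fit, which may be technical. Shared sequence was measured in 31-base words. The fits were run on simulated data in which all genes had the same spread. That simulation cannot show how the fits behave where genes differ in spread.

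The genes and lists were chosen with earlier results of these data known. Named genes were the 3 with the highest FPKM in each complex, isoforms and paralogs, complex I core and SDH subunits, up to 10 with the largest changes and intervals on 1 side of 1 in both libraries, up to 5 that differed most between the libraries labelled PD-L1 knockdown, read-through genes, ATP5IF1 and any past a threshold; NDUFA7, UQCR11, UQCRC2, UQCRFS1, ATP5MF, ATP5PB, ATP5PF, ATP5F1A, ATP5S, UQCRB and the genes named from other lists were named after their values were seen. Some genes covered by these rules are not reported here.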

Additional observations from a re-analysis of the deposited data

How the results depend on the processing

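Under every alternative, 0 genes of the set passed an adjusted p of 0.05. The alternatives were DESeq2 size factors, library totals, minima of 1 count or a mean of 100, DESeq2's Wald test, protein_coding genes alone, and removal of the trends with length or with length and GC. The genes higher at an unadjusted p under 0.05 fell from 13 to 4 with DESeq2's Wald test, those lower went from 0 to 1 with length and GC trends removed, and the genes with an interval below 1 in both libraries went from 2 to 1 at 99%. The median of 0.15 was 0.126 with the length trend removed and 0.123 to 0.142 when either library labelled PD-L1 knockdown was left out, and stayed above 0 in all. Without ATP5F1B, chosen after seeing the data, the summed ratio of the library labelled PD-L1 knockdown 2 went from 1.08 to 1.10. The median of complex II turned to 0.0526 with length and GC trends removed and ranged from -0.00309 to 0.000189 when either library was left out. Also with those trends removed, ATP5F1C turned to 0.0392, ATP5MG to 0.0198, NDUFA4 to 0.00500, NDUFS1 to 0.165 (0.0562 with length alone), NDUFS8 to -0.0571, NDUFV2 to 0.012 and SDHC to 0.0612. COX7A1 turned to 0.00044 with a minimum of 1 count. The cause was not tested. No paired analysis was possible because the control carries no replicate number that pairs it with the other libraries. The single control, the spread pooled over genes and the depth limit what could be detected. The median SE was 0.14 over the genes averaging at least 100 counts, and it was 0.11 for ATP5F1B, whose mean was 14500 counts.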

Other observations

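Genes of the 2 translation machineries lay beside the respiratory genes. The 78 mitochondrial ribosomal proteins, which translate the mitochondrial messages, had a median log2 fold change of 0.13, with 58 above 0 and 20 below, and 0 passed the adjusted threshold (edgeR; 18 were higher and 0 lower at an unadjusted p under 0.05, against 6.82% and 4.92% of all tested genes). Their summed CPM was 3252 in the control and 3556 and 3473 in the libraries labelled PD-L1 knockdown 1 and 2. The 78 cytosolic ribosomal proteins had a median of 0.19, with 72 above 0 and 6 below, and 3 were higher at an adjusted p under 0.05 (edgeR), which 0.353% of all tested genes had in either direction. Their summed CPM was 28899, 33778 and 32685.

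The TCA cycle, which supplies the electrons, had a median of 0.05 over 18 genes, 10 of them above 0, and none passed the adjusted threshold (edgeR; 2 of the 18 were higher and 0 lower at an unadjusted p under 0.05, where 6.82% and 4.92% of all tested genes were). IDH3B, a regulatory subunit of the NAD-linked isocitrate dehydrogenase, had 983, 1268 and 1385 counts (log2 fold change 0.38) and IDH2, the NADP-linked mitochondrial form, 709, 880 and 985 (0.35). CS, citrate synthase, had 3951, 3859 and 4258 counts (-0.01) and FH, fumarase, 1266, 1248 and 1297 (-0.04). Among assembly factors of complex IV, COX16 had 108, 72 and 55 counts (-0.81, adjusted p = 0.213 by edgeR), and SURF1 430, 554 and 545 (0.31).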
